A study of Homo sapiens with 15 samples.

Results

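A set of 212 H3K4me3 peaks carried almost no mark in parental MDA-MB-231 cells (Par) and a clear one in LM2 or BrM2, its lung- and brain-metastatic sub-populations. They were chosen from 22572 consensus peaks by their own H3K4me3 counts, expressed in CPM, the count scaled to a common total of reads in peaks per library. A peak had to be under 1 CPM in both Par libraries and at 4 CPM or more in both libraries of LM2 or of BrM2. Of the 212, 136 met the rule in BrM2 only, 53 in LM2 only and 23 in both lines. The members were 0.939% of all H3K4me3 peaks and 9.27% of the 2288 peaks that were under 1 CPM in both Par libraries. Since the rule used every H3K4me3 contrast, H3K4me3 levels of the members are described here and not tested, and tests are kept to H3K27ac, which was measured in other libraries.

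MDA-MB-231 is a triple-negative, mesenchymal human breast cancer cell line, and LM2 and BrM2 are populations selected from it for growth in lung and in brain. All 3 lines were cultured for 3 days in medium with 10% serum and, per the labels, fixed in 1% formaldehyde for 10 min, for which the study's methods give a longer time. Each line and mark had 2 replicate libraries (12 with counts), which are repeats of 1 sub-population and not separately derived lines. The study's methods call them biological replicates, but the labels do not say that they were separate cultures, so p-values measure the spread between these libraries, which may be technical. Totals in peaks ran from 3489607 to 9839629 reads for H3K4me3 and from 1994996 to 6450028 for H3K27ac, with the shallowest library Par replicate 1 for H3K4me3 and BrM2 replicate 2 for H3K27ac. One read was worth 0.287 CPM in Par replicate 1 and 0.149 CPM in Par replicate 2, so that a silent peak held at most 3 and 6 reads. Promoter peaks of VIM, CD44, AXL, CAV1, MSN and ZEB1, markers of mesenchymal cells, stood at 30.3 to 329 CPM in all libraries. The 6 luminal markers ESR1, PGR, CDH1, GATA3, FOXA1 and KRT8 also had promoter peaks, at 1.15 to 101 CPM, with KRT8 the highest in Par.

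H3K4me3 is laid down on the nucleosomes around active transcription starts, and most unmethylated CpG islands carry it whether or not their gene is strongly transcribed. H3K27ac marks active promoters and enhancers. Beside the starts of genes, human DNA holds promoters inside mobile elements. A full-length LINE-1 element carries its own promoter at its 5′ end, followed by reading frames for an RNA-binding protein and for an endonuclease with reverse transcriptase, and DNA methylation keeps most copies silent in somatic cells.

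Such a sequence was present at part of the members, and the rule did not use it. The central 300 bases of each of the 22572 peaks were compared with those of all other peaks, and peaks that matched over at least 150 bases at 80% identity or more were joined into groups. One group held 529 peaks, with a median identity of 90.2% between matching windows. Within 8000 bp on either side of these peaks, the most frequent longest reading frame had 1275 codons (16 peaks) and the most frequent second-longest had 338 codons (43 peaks), the lengths of the LINE-1 proteins ORF2p and ORF1p. The group is therefore called LINE-1-like. It held 67 of the 212 members (31.6%) against 2.34% of all H3K4me3 peaks and 13% of the other peaks that were silent in Par. By set, it held 15 of the 23 members gained in both lines (65.2%), 27 of the 53 gained in LM2 only (50.9%) and 25 of the 136 gained in BrM2 only (18.4%). With a match allowed anywhere in the peak, the counts were 15, 32 and 25. The plot of position and shared sequence gives these shares.

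The motif AAGATGGC, the core of the site that the factor YY1 binds at the LINE-1 5′ end, lay inside 60 of the 67 LINE-1-like members. Over the whole group it lay inside 262 of 529 peaks. LINE-1-like members were longer than the group's non-members (medians 637 and 447.5 bp), which leaves more room for the motif. In windows of equal length, it was found on either strand in 12.7% of the members' central 300 bases, in 3.18% of those of the other silent peaks and in 2.28% of those of all peaks. The larger share of LINE-1-like peaks among the members enters this difference.

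These peaks lay at the 5′ end of the element, and many reached into its flank. The plot of their extent shows that they began a median of 123 bp before the motif (quartiles 47.8 and 209 bp) and ended a median of 496 bp after it (quartiles 472 and 525 bp), and 52 of 60 ended between 400 and 600 bp after it. At least 100 bp of sequence before the motif belonged to the peak in 34 of 60. Among the 202 non-members of the group with the motif, the medians were 69.5 bp before and 471 bp after it. Of these, 83 held at least 100 bp before the motif and 111 ended between 400 and 600 bp after it. Such a layout was thus not particular to the members. Members gained in both lines reached farther before it (median 211 bp, n = 15) than those gained in LM2 only (88 bp, n = 25) or BrM2 only (86.5 bp, n = 20). Peak edges came from a call on reads pooled over the lines, and the part of read depth in this difference was not tested. The elements lay on the plus strand at 26 loci and on the minus strand at 34. Reads from the inner part of near-identical copies cannot be placed with certainty, and a minimum mapping quality is not given in the sources used here, so a count at 1 copy may include reads of others. The same holds for members at TUBA3C and DUXAP10, which belong to families of near-identical copies.

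**Figure D1:**
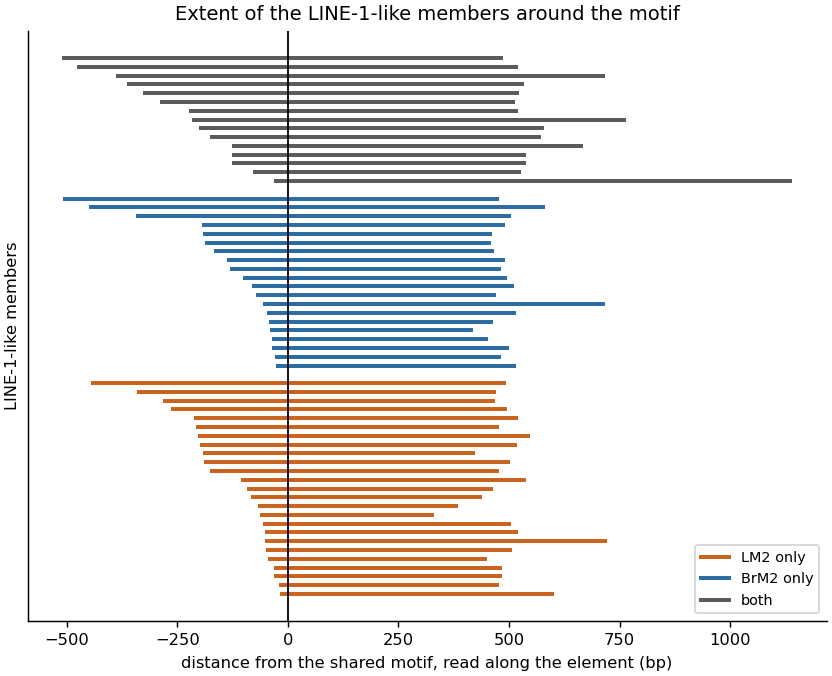
Extent of the 60 LINE-1-like members that hold the motif AAGATGGC. Each line is 1 peak, coloured by set, drawn from its first to its last base in bp from the motif (0) and read in the direction of the element; most end near 500 bp after the motif, and their starts vary.

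H3K4me3 at the members was at or near the level of single reads in Par. In populations of cells, fewer cells with the mark and less of it per cell cannot be told apart. In the 136 BrM2-only members the medians were 0 and 0.298 CPM in the Par libraries, 0.23 and 0.508 for LM2, and 5.78 and 8.36 in BrM2. In the 53 LM2-only members they were 0.287 and 0.447 CPM for Par, 6.2 and 6.71 for LM2, and 0.873 and 1.61 for BrM2. In the 23 members gained in both lines they were 0.287 and 0.447 CPM for Par, 7.34 and 9.05 for LM2, and 6.77 and 9.42 for BrM2. Most members were therefore weak peaks even where they were gained, beside medians of 16.8 to 26.3 CPM over all H3K4me3 peaks. The lower of the replicates reached 12 CPM at 16 BrM2-only members, 3 LM2-only members and, taking the lowest of 4 libraries, 1 member gained in both. Both Par libraries held 0 reads at 21 members, for which 3 reads in a library set the limit of detection.

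The names of the sets did not mean absence in the other line. At 28 of the 53 LM2-only members both BrM2 libraries were above both Par libraries, and at 22 of them both were under 1 CPM. At 54 of the 136 BrM2-only members both LM2 libraries were above Par, and at 93 both were under 1 CPM. Over all 22572 H3K4me3 peaks, both BrM2 libraries were above both Par libraries at 4824, and both LM2 libraries at 4302. The rule kept Par low at the members, which by itself makes values above Par more likely. One library of the other line reached 4 CPM at 9 LM2-only and 6 BrM2-only members. Near the thresholds, the members with the highest Par value reached 0.894 CPM (at AGBL4-AS1 and at chr1:170063951-170064393) and the first peaks outside stood at 1.04 CPM (LINC01515 and chr10:133814530-133815161). In the gaining line the lowest members had 4.09 CPM (chr1:239138416-239138822 and chr3:165289996-165290615), and a peak just outside had 3.93 CPM (LINC01036). Another 98 silent peaks reached 3 to 4 CPM in both libraries of a line, compared with 63 members at 4 to 5 CPM, so the cut passes through a continuous range.

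**Figure D2:**
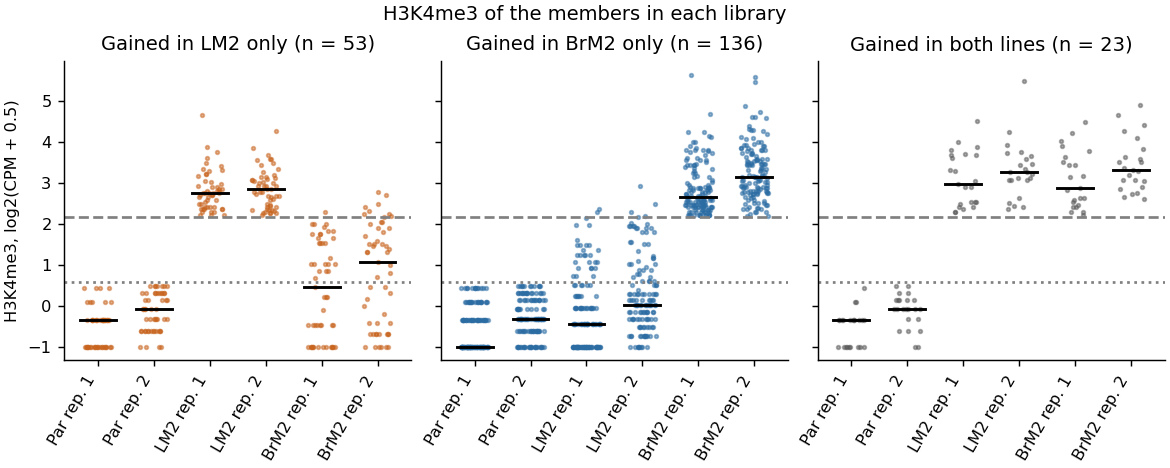
H3K4me3 of each member (points) in each of the 6 libraries as log2(CPM + 0.5), by set, with the median as a black bar; the dotted and dashed lines are 1 and 4 CPM. The rule fixes the Par and gaining-line columns, and the column of the other line runs from 0 reads to above 4 CPM.

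Most members lay outside protein-coding promoters, as did most other peaks silent in Par. Of all H3K4me3 peaks 61.9% and of the 2076 other silent peaks 15.2% were promoter peaks, no more than 2 kb from where transcription of a protein-coding gene begins, compared with 34 of 136 BrM2-only members (25%), 7 of 53 LM2-only members (13.2%) and 2 of 23 gained in both (8.7%). Starts of non-coding transcripts accounted for 33, 7 and 8 members, introns for 16, 9 and 2, an exon for 1, 0 and 0, and intergenic DNA for 52, 30 and 11. In all, 43.9% of the members were intergenic, against 44.1% of the other silent peaks and 16.8% of all peaks. The nearest other H3K4me3 peak was a median of 100 kb away from a BrM2-only member, 94.8 kb from an LM2-only member and 106 kb from a member gained in both, against 43.2 kb for the other silent peaks and 24.2 kb over all peaks. A radius of 1 Mb held a median of 4, 8 and 7 protein-coding genes, against 10 for the other silent peaks and 18 for all peaks.

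**Figure D3:**
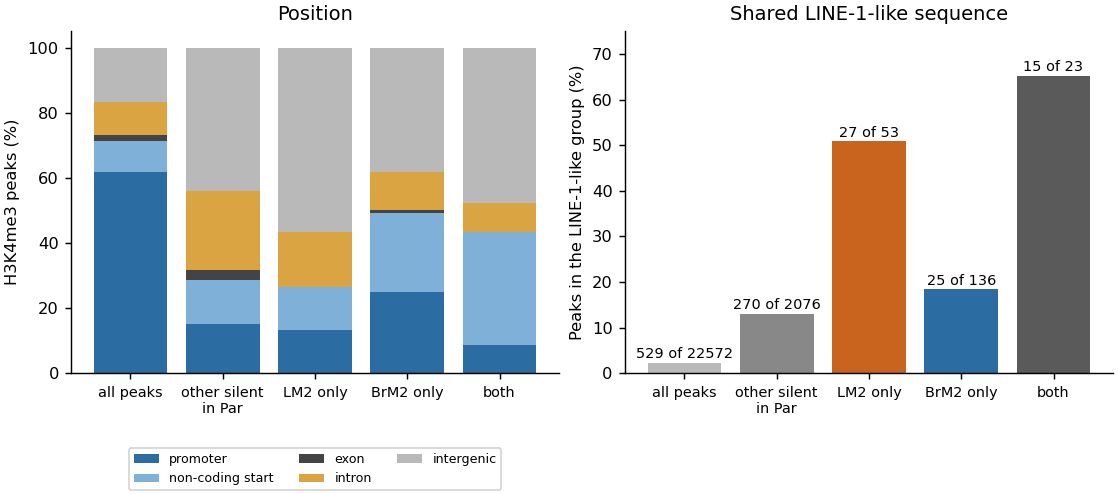
Left, share of peaks (%) by position for all 22572 H3K4me3 peaks, the 2076 other peaks silent in Par and the sets of members. Right, share of the same groups in the LINE-1-like group (%), with counts above the bars; 15 of 23 members gained in both lines belonged to it.

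Median lengths were 936 bp (BrM2 only), 651 bp (LM2 only) and 987 bp (both), between the 320 bp of the other silent peaks and the 1601 bp of all peaks. A CpG-island-like stretch, meaning 200 bases with at least 50% G and C and an observed-to-expected CpG ratio over 0.6, was present in 110 of 136, 50 of 53 and 19 of 23. The shares of 80.9%, 94.3% and 82.6% compare with 78.1% over all peaks and 38.7% over the other silent peaks. The stretch was sought over the whole peak, so longer peaks had more chances to hold one, and windows of equal length were not compared. The median number of CpG per 100 bases was 3.59 in members and 2.87 in the other silent peaks. Their median G and C contents were 52% and 53.9%. Motifs were searched on both strands of the central 300 bases, and each share is given for members, the other silent peaks and all peaks in this order. A GC box (GGGCGG) was found in 18.9%, 20.5% and 45.6%, and an AP-2 sequence (GCCNNNGGC) in 8.02%, 13.5% and 26.1%. The shares were 12.3%, 13.8% and 8.05% for AP-1 (TGANTCA), 3.3%, 3.13% and 6.38% for ETS (CCGGAAG), 2.36%, 4.14% and 2.85% for forkhead (TGTTTAC), and 5.19%, 4.96% and 3.66% for RUNX (TGTGGTT). They were 23.6%, 26.4% and 23.3% for the CCAAT box (CCAAT) and 9.91%, 9.01% and 6.41% for the TATA box (TATAAA). For most of these motifs the members were thus nearer to the other silent peaks than to all peaks. These shares describe letters in a window and say nothing of which factors were bound.

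Among the BrM2-only promoter members the highest H3K4me3 was at PLCB4, a phospholipase C. Its CPM values were 0.573 and 0.596 for Par, 0.689 and 1.73 for LM2, and 49.1 and 43.6 for BrM2. TSPOAP1 (chr17:56407626-56408948), whose product binds calcium channels and other proteins of the presynaptic terminal, has its start 1470 bp from this peak and that of its antisense RNA 660 bp from it. The peak had 0.573 and 0.894 CPM for Par, 0 and 0.61 for LM2, and 25.1 and 47 for BrM2. Another promoter peak of TSPOAP1, 5110 bp away and no member, had a mean of 23.7 CPM in Par. Its log2 ratios to Par, with 0.5 CPM added, were -0.60 in LM2 and -0.29 in BrM2, so the gene had a marked promoter peak in Par. NRK (chrX:105065347-105067127), which encodes a protein kinase, had 0 and 0.596 CPM for Par, 0 and 0.305 for LM2, and 18.3 and 28.6 for BrM2. At these 3 members the Par and LM2 libraries stayed at or under 1.73 CPM, without overlap with BrM2. Further promoter members were LINGO2, SHANK1 and LRRTM1. LINGO2, a leucine-rich repeat membrane protein of neurons, had 13.5 and 15.4 CPM in BrM2, SHANK1, a scaffold of the postsynaptic density, 13.1 and 19.1, and LRRTM1, a synaptic adhesion protein, 6.33 and 11. For these the Par libraries reached at most 0.894 CPM and the LM2 libraries at most 1.63 CPM.

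A group of 3 zinc finger genes of the KRAB cluster at 19p12 was gained in BrM2 only. ZNF492 had 12.9 and 16.1 CPM in BrM2 and at most 0.407 in the other libraries, and ZNF98 had 8.29 and 11 CPM in BrM2 and at most 0.508 elsewhere. ZNF730 had 11.3 and 16.7 CPM in BrM2 and 3.9 and 3.96 in LM2, the nearest approach to the threshold of the 3. Genes with roles outside the cell or at its surface were FGF10, a growth factor of branching organs, ADAMTS5, an aggrecan-cleaving protease, and FLT1, a receptor for VEGF. They had 5.89 and 10.8, 6.55 and 11.4, and 14.4 and 7.93 CPM in BrM2. The cadherins CDH18 (6.98 and 9.79 CPM) and CDH12 (4.15 and 5.2 CPM) and 2 alternative starts of the transcription factor gene TCF4 (4.58 and 6.2, and 6.55 and 4.34 CPM) had lower BrM2 values than most of the promoters above.

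The 7 promoter members of LM2 only were BEND5, IGSF1, NKX2-5, ALPK2, KANK4, PRSS56 and WDR72. BEND5 (chr1:49241969-49243195), a BEN-domain gene, was the strongest LM2-only member. Its values were 0 and 0.149 CPM for Par, 24.8 and 18.6 for LM2, and 0 and 1.12 for BrM2. IGSF1 (chrX:130711596-130713172), a membrane protein of the immunoglobulin superfamily, had 0 and 0.596 CPM for Par, 14 and 12.3 for LM2, and 1.53 and 2.35 for BrM2. NKX2-5, a homeobox factor of the heart, had 0.287 and 0.745 CPM for Par, 11.7 and 9.65 for LM2, and 2.4 and 2.23 for BrM2. BrM2 was therefore near Par at BEND5 and between Par and LM2 at the other pair. WDR72 had 4.37 and 2.73 CPM and ALPK2 3.06 and 6.32 CPM in BrM2, both above Par, and they entered the LM2-only set through 1 BrM2 library under 4 CPM.

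Only 2 promoters were gained in both lines. ENG (chr9:130615596-130617099) encodes endoglin, a TGF-β co-receptor known from endothelium, and had 0 and 0.894 CPM for Par, 11.7 and 18.3 for LM2, and 21.8 and 24.4 for BrM2. KISS1 (chr1:204164372-204166102), the gene of kisspeptin, first described as a metastasis suppressor, had 0.287 and 0.447 CPM for Par, 4.36 and 8.23 for LM2, and 15.7 and 18.6 for BrM2. At KISS1 both BrM2 libraries were above both LM2 libraries, and at ENG as well. The strongest member of the set lay at the non-coding LINC02182 (chr16:88216718-88220490), with 22 and 44 CPM in LM2 and 18.1 and 29.1 in BrM2. A LINE-1-like member at WTAPP1 (chr11:102617609-102618380), a pseudogene in the matrix metalloproteinase cluster of 11q22, had 0.287 and 0.596 CPM for Par, 15.4 and 13 for LM2, and 5.67 and 7.68 for BrM2.

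The 300 bases before the annotated start are printed for 3 of these promoters, with CG dinucleotides in capitals (GRCh37, strand of the gene). They hold 26 (LINGO2), 24 (NRK) and 9 (ENG) CG dinucleotides, with a G and C content of 63%, 71.3% and 67.3%. The number of CG dinucleotides thus differed, but the peaks of all 3 held a CpG-island-like stretch as defined above. The ENG window runs past the end of its peak.
LINGO2, chr9:29213600-29213899, minus strand: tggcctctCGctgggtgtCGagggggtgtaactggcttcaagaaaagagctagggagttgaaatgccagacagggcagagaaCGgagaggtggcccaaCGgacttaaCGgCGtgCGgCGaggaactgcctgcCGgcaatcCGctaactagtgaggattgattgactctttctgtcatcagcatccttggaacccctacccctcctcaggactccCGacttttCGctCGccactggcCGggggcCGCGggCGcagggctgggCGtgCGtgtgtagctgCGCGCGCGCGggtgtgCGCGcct
NRK, chrX:105066232-105066531, plus strand: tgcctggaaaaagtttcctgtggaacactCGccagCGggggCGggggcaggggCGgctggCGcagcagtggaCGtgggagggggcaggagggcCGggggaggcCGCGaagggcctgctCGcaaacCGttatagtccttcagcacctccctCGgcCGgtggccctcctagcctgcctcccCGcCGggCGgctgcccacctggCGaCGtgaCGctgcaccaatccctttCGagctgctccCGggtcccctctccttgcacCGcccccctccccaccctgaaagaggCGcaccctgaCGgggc
ENG, chr9:130616938-130617237, minus strand: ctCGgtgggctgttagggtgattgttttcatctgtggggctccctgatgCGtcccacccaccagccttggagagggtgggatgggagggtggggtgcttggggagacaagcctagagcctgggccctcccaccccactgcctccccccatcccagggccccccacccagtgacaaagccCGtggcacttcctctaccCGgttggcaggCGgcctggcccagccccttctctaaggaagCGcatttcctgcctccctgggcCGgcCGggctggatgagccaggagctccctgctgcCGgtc

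Few members fell into gene families. Of 13982 promoter peaks, 43 (0.308%) were members. Among the lists of genes counted, 3 of 49 promoter peaks of cadherins and protocadherins were members (6.12%: CDH18, CDH12 and PCDHAC2), 2 of 118 for axon guidance and synaptic adhesion (LRFN5 and LRRTM1), and 2 of 161 for ion channels (KCNF1 and, through CHRND, the PRSS56 peak). The count was 3 of 521 for zinc finger genes, 1 of 121 for matrix and protease genes (ADAMTS5) and 1 of 146 for secreted signals (FGF10). It was 0 of 203 for developmental transcription factors as listed, 0 of 26 for cancer-testis genes and 0 of 25 for genes linked in the field to lung or brain colonisation. NKX2-5, a homeobox gene and a member, was missed by the symbol pattern of that list. Counts this small, in lists of unequal size, are given as a description.

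Some members lay near one another. When members less than 2 Mb apart were chained, 13 stretches of at least 3 members held 54 of the 212, and the number of protein-coding genes in a stretch ran from 0 to 20. Other silent peaks were not chained in this way, so the count has no background. The stretch with 20 genes was chr16:85268402-88220490 (4 members among 43 peaks). Stretches of BrM2-only members alone were found at chr13:83675789-86015983 (5 members), chr14:42073762-46021090 around LRFN5 (5, with 9 protein-coding genes), chr21:28338912-28942616 around ADAMTS5 (4), chr9:29213305-30349661 at LINGO2 (4), chr21:17566627-17909812 at the non-coding MIR99AHG (3), chr18:52988895-53389251 at TCF4 (3), chr19:22604525-23300448 at the zinc finger genes above (3, with 6 protein-coding genes) and chr2:52033488-53814590 (3). At chr5:25083366-29192247, near the cadherin genes CDH10 and CDH9, 4 BrM2-only members and 1 LM2-only member lay among 23 peaks, of which 20 were silent in Par. By chromosome, the share of H3K4me3 peaks that were members was 3.76% on chromosome 21, 2.53% on 18, 2.52% on 14 and 2.21% on 13, and 0.0978% on chromosome 10, which held 1 member, an LM2-only one.

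H3K4me3 peaks near the members had their own values. A peak that was no member lay within 100 kb of 58 BrM2-only members. Its median log2 ratio of BrM2 to Par, with 0.5 CPM added, was 1.47 (quartiles 0.20 and 2.23), beside 0.04 over all non-members, and it was over 1 for 34 of the 58. The ratios over 1 came mostly from neighbours with a mean under 1 CPM in Par, whereas most non-members were marked in Par. A median over silent non-members was not computed, and some neighbours were counted for more than 1 member. For LM2-only members 27 had such a neighbour, with a median LM2 to Par ratio of 0.21 (quartiles -0.07 and 0.59), and 5 were over 1. These are values of the contrast that the rule used and are given without a test.

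H3K27ac, which the rule did not use, was gained at many members. An H3K27ac consensus peak overlapped 33 of 53 LM2-only members, 48 of 136 BrM2-only members and 18 of 23 members gained in both, and the other 113 members have no H3K27ac value here. These shares of 62.3%, 35.3% and 78.3% compare with 50.1% of the other silent peaks and 87.6% of all H3K4me3 peaks. Of the 51 overlapping peaks at LM2-gained members (LM2 only and both together), 23 were higher in LM2 than in Par and 0 lower by the DESeq2 Wald test at an adjusted p under 0.05 over all H3K27ac peaks. Over all 48931 H3K27ac peaks with an adjusted p in that contrast, 2.72% were higher and 0.907% lower. Of the 66 at BrM2-gained members, 49 were higher in BrM2 than in Par and 0 lower, against 3.62% higher and 1.67% lower over 51342 peaks. Independent filtering left 10 and 8 of the 51 and 66 without an adjusted p, and those that kept one did so partly through the gaining line. With edgeR's quasi-likelihood test, in which all 62195 peaks kept an adjusted p, 38 of 51 were higher and 0 lower in LM2 (3.78% and 1.36% of all peaks), and 61 of 66 higher and 0 lower in BrM2 (4.43% and 2.45%). The count for LM2-gained members was 9 without either Par library, 7 without LM2 replicate 1 and 11 without LM2 replicate 2, and that for BrM2-gained members was 30 without Par replicate 1, 31 without Par replicate 2, 27 without BrM2 replicate 1 and 31 without BrM2 replicate 2. Without the LINE-1-like members, an alternative added after seeing the data, 14 peaks were higher in LM2 and 43 in BrM2.

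By set, the median H3K27ac log2 fold change of LM2 over Par was 2.74 at LM2-only members (n = 33), 0.88 at BrM2-only members (n = 48) and 3.99 at members gained in both (n = 18). That of BrM2 over Par was 1.12, 3.36 and 3.76. Over all tested peaks the medians were -0.04 and -0.01. With peaks at 0 reads in both Par libraries set to a bound from 3 reads, the medians of LM2 over Par were 2.58, 0.88 and 3.63, and those of BrM2 over Par 1.06, 3.36 and 3.69. The fold change was above 0 in the gaining line at 33 of 33 LM2-only, 48 of 48 BrM2-only and 18 of 18 members gained in both. H3K27ac peaks were called on reads pooled over the lines. The median normalized Par count of the 99 overlapping peaks was 2.81, against 22.2 over all H3K27ac peaks. Many of them could therefore have been called through LM2 or BrM2 reads, which fixes the direction in part. Members without an H3K27ac peak are not in these counts. At LM2-only members 9 of 33 peaks were called higher in BrM2 than in Par, and at BrM2-only members 8 of 48 were called higher in LM2. These were counted whether or not the gaining line was called, and at ALPK2, an LM2-only member, only BrM2 was. These contrasts share the Par libraries.

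**Figure D4:**
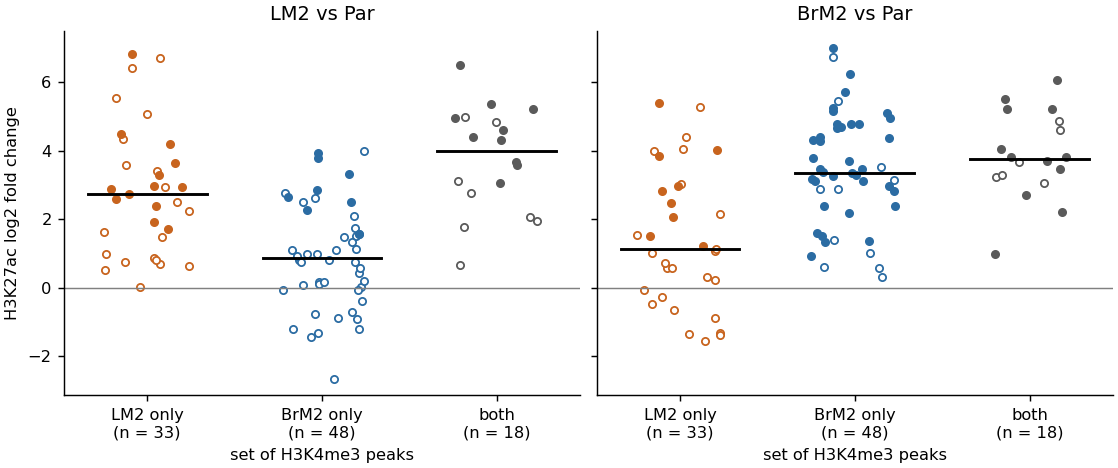
H3K27ac log2 fold change against Par at the H3K27ac peak overlapping each member, for LM2 (left) and BrM2 (right), by set. Filled points had an adjusted p under 0.05 (DESeq2 over all H3K27ac peaks), open points did not, and black bars are medians, which are 2.74, 0.88 and 3.99 on the left and 1.12, 3.36 and 3.76 on the right.

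At the NRK promoter the normalized H3K27ac counts (counts scaled by DESeq2 size factors) were 2.61 and 2 for Par, 0 and 0.986 for LM2, and 52.6 and 69.4 for BrM2. BrM2 stood clear of the other libraries, with a log2 fold change over Par of 4.70 ± 0.84 (SE, n = 2 libraries per line, DESeq2 adjusted p = 5.49e-06). From the 90 and 5 reads, the fold was 25 with an exact 95% interval of 10.3 to 78.9 for counting error only. PLCB4 rose from 6.97 and 8.01 in Par to 64.3 and 79 in BrM2 (3.25 ± 0.58, DESeq2 adjusted p = 4.76e-06). At CARD18, a caspase-recruitment domain gene of the 11q22 caspase cluster, the counts were 0.871 and 1 for Par, 3.37 and 1.97 for LM2, and 40 and 57.8 for BrM2, a fold over Par of 49.3 (interval 13.2 to 415, from 71 and 2 reads). SHANK1 rose by 3.46 ± 0.86 (DESeq2 adjusted p = 0.00292) and CDH18 by 3.18 ± 0.97 (DESeq2 adjusted p = 0.0255). TSPOAP1 had 21.8 and 75.1 in Par and 88.7 and 166 in BrM2, and its change of 1.39 ± 0.86 did not pass (DESeq2 adjusted p = 0.464), but a change of 1.54 passed with the replicate number as a block.

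Large H3K27ac changes of BrM2-only members also lay outside promoters. One was chr3:84290642-84291253, an intergenic site upstream of CADM2, its nearest protein-coding gene, at a distance of 716887 bp. Its normalized counts were 3.48 and 0 for Par, 21.3 and 14.8 for LM2, and 149 and 129 for BrM2. The site was thus also above Par in LM2 (3.31 ± 0.84, DESeq2 adjusted p = 0.00544), and BrM2 was above LM2 (2.92 ± 0.45, DESeq2 adjusted p = 8.22e-08). Of the 4 members in the stretch with ADAMTS5, its promoter had no H3K27ac peak, and the 3 intergenic ones rose in BrM2 over Par by 4.65 ± 0.50, 4.37 ± 1.10 and 4.78 ± 0.92 (DESeq2 adjusted p = 1.02e-16, 0.00346 and 3.46e-05). These 3 lay 601305, 371141 and 362965 bp from the nearest ADAMTS5 start, and a link to the gene was not tested. A member inside an intron of ROBO2, an axon guidance receptor, rose by 2.98 ± 0.58 (DESeq2 adjusted p = 4.93e-05).

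Among LM2-only members IGSF1 had H3K27ac counts of 0.871 and 2 for Par, 29.7 and 32.5 for LM2, and 12.7 and 9.64 for BrM2. The log2 fold change of LM2 over Par was 4.47 ± 1.02 (DESeq2 adjusted p = 0.00129), and the fold from 86 and 3 reads was 22 (interval 7.28 to 109). The non-coding CASC9, a LINE-1-like member, had 0 reads in both Par libraries, and LM2, with 15.7 and 23.7, was at least 13.3-fold higher, counting 3 reads over the Par group. BEND5, KANK4 and PRSS56 had no overlapping H3K27ac peak, and NKX2-5 had 18 and 17.7 in LM2 with a change of 0.76 ± 0.67 (DESeq2 adjusted p = 0.792). WDR72 rose in LM2 over Par by 1.70 ± 0.48 (DESeq2 adjusted p = 0.0167), a call lost with the replicate block at 1.91. A high H3K4me3 gain at a promoter was therefore not always accompanied by a called H3K27ac gain.

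A few members overlapped an H3K27ac peak with a clear count in Par, although the H3K4me3 of the member was near 0 there. Of the 99 overlapping peaks, 16 had a mean normalized count in Par at or above 22.2, the median over all H3K27ac peaks, and the median of the 99 was 2.81. These counts cover the whole H3K27ac peak and were not scaled for its length. At KISS1, ALPK2 and SP140 the H3K27ac peak extended beyond the member, so its Par reads may lie outside the member. Whether H3K27ac was present in Par within the member itself was not tested. KISS1 had H3K27ac counts of 200 and 249 for Par, 338 and 371 for LM2, and 407 and 474 for BrM2. It rose in BrM2 over Par by 0.97 ± 0.27 (DESeq2 adjusted p = 0.013) and was 0.66 ± 0.27 above Par in LM2 without passing (DESeq2 adjusted p = 0.204), though it passed with the replicate block at 0.66. ALPK2, an LM2-only member by H3K4me3, had 105 and 126 for Par, 154 and 178 for LM2, and 284 and 253 for BrM2. It rose in BrM2 over Par by 1.22 ± 0.30 (DESeq2 adjusted p = 0.00257), and its change in LM2 of 0.52 ± 0.30 did not pass (DESeq2 adjusted p = 0.5). SP140, a nuclear body protein of immune cells, had 136 and 69.1 in Par. SP140 rose in BrM2 over Par by 1.59 ± 0.36 (DESeq2 adjusted p = 0.000665). ENG was lower in Par, at 8.71 and 12, and rose in BrM2 by 2.21 ± 0.58 (DESeq2 adjusted p = 0.0058). In LM2 the ENG change was 1.77 ± 0.57 (DESeq2 adjusted p = 0.0523), and 1.74 with the replicate block, where it passed.

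BrM2 was also set against LM2 in the H3K27ac libraries, which the rule did not use. The H3K27ac peaks were called on pooled reads, with a median normalized Par count of 3.28 at BrM2-only and 3.62 at LM2-only members. Many could therefore have been called through the gaining line, which fixes the direction in part. An adjusted p was kept by 39 of 48 peaks at BrM2-only members, 21 of 33 at LM2-only members and 15 of 18 at members gained in both. At BrM2-only members 23 of 48 peaks were higher in BrM2 than in LM2 and 0 lower, against 1.71% higher over the 46519 tested peaks. At LM2-only members 6 of 33 were lower in BrM2 and 0 higher, against 1.22% lower. At members gained in both, 0 of 18 differed by DESeq2, 2 had an unadjusted p under 0.05, and edgeR called 1. The edgeR counts were 34 at BrM2-only members and 9 at LM2-only members, against 2.05% of all peaks higher and 1.84% lower, and with the replicate block 39, 15 (1 higher, 14 lower) and, at members gained in both, 3. The medians of the log2 difference were 2.54, -1.42 and -0.16. The smaller LM2-only count rested on single libraries, being 0 without LM2 replicate 1 or without BrM2 replicate 1 and 2 without LM2 replicate 2 or BrM2 replicate 2. The BrM2-only count was 9 and 15 without LM2 replicates 1 and 2, and 5 and 10 without BrM2 replicates 1 and 2. At the LINE-1-like site chr2:174397539-174398221, LM2 had 30.9 and 25.6 and BrM2 1.95 and 0, which is close to the 5.23 and 2 of Par.

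At LINE-1-like members the number of H3K27ac peaks varied by set. An H3K27ac peak overlapped 12 of 27 LM2-only and 10 of 15 members gained in both, but 1 of 25 BrM2-only members, where 47 of 111 other BrM2-only members had one. Of the 23 overlapped LINE-1-like members, 9 were higher in LM2 than in Par and 7 higher in BrM2, with 0 lower (DESeq2), and the median log2 fold changes were 3.58 and 3.23. Examples were ENSG00000257869 (chr14:28787242-28788229), with 0.871 and 0 for Par, 51 and 32.5 for LM2, and 33.1 and 28.9 for BrM2, and chr1:75578028-75578682 near LHX8, with 0.871 and 0, 20.2 and 17.7, and 21.4 and 21.2. WTAPP1 rose in LM2 over Par by 4.95 ± 1.19 (DESeq2 adjusted p = 0.00258).

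The other 462 peaks of the LINE-1-like group did not meet the H3K4me3 rule, so their H3K4me3 is given as a description. Over these peaks, the median H3K4me3 was 0.287 and 0.596 CPM for Par, 1.15 and 1.93 for LM2, and 1.09 and 1.86 for BrM2. Both LM2 libraries were above both Par libraries at 219 of the 462 and below at 52, and both BrM2 libraries were above at 228 and below at 92. Over all 22572 H3K4me3 peaks the LM2 libraries were above Par at 4302 and below at 2714, and the BrM2 libraries above at 4824 and below at 3188. Where H3K27ac was measured at these non-members, 5 of 94 tested peaks (5.32%) were higher in LM2 and 3 of 100 (3%) higher in BrM2, and 1 was lower in each. Over all H3K27ac peaks 2.72% and 3.62% were higher, and over H3K27ac peaks at any H3K4me3 peak 1.75% and 2.5%.

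H3K27ac peaks beside the members also changed. Within 100 kb of BrM2-gained members and not overlapping any member, 65 of 305 tested H3K27ac peaks (21.3%) were higher in BrM2 than in Par and 0 lower, against 3.62% of all peaks. The share was 22 of 45 (48.9%) up to 10 kb, 25 of 121 (20.7%) from 10 to 50 kb and 18 of 139 (12.9%) from 50 to 100 kb. Around LM2-gained members 20 of 182 tested peaks (11%) were higher in LM2 and 1 lower, against 2.72%, and the shares were 1 of 16, 6 of 65 and 13 of 101 over the same distances. A fall with distance was thus seen around BrM2-gained members and not around LM2-gained ones, a difference that was not tested. Peaks of 1 stretch share their surroundings and are not independent. H3K27ac peaks were called on reads pooled over the lines, so some near members may have been called or tested only through the gaining line. Peaks near the other silent H3K4me3 peaks were not counted, so the share over all peaks is the only background. Of the 86 calls in all, 36 were made without Par replicate 1, 34 without Par replicate 2, 31 without BrM2 replicate 1 and 48 without BrM2 replicate 2, and edgeR with the replicate block called 191 (172 higher, 19 lower).

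**Figure D5:**
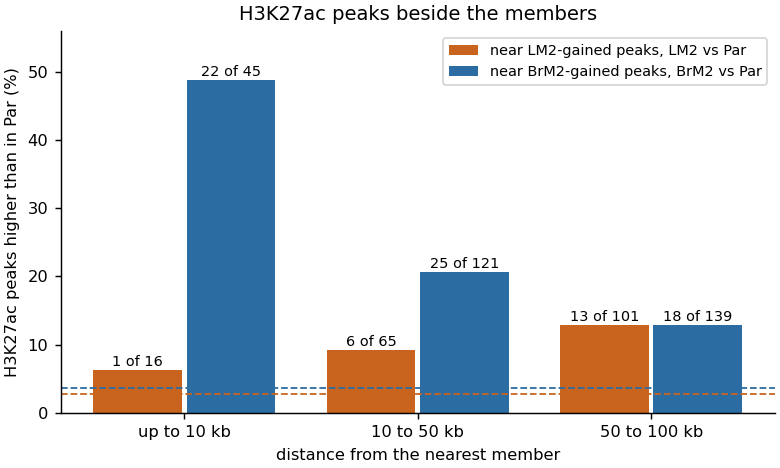
Share (%) of tested H3K27ac peaks near members, but not overlapping them, that were higher in the gaining line than in Par (DESeq2 adjusted p under 0.05), by distance, with counts above the bars; dashed lines are the shares over all H3K27ac peaks (2.72% for LM2, 3.62% for BrM2). Near BrM2-gained members the share falls from 48.9% to 12.9%.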

How the data were processed

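H3K4me3 and H3K27ac ChIP-seq of the 3 lines gave 12 libraries with counts, and the 3 inputs were not used. The authors trimmed reads with Trimmomatic 0.32, aligned them to hg19 with Bowtie2 2.3.4.3, marked duplicates with Picard 2.18.21, called a consensus peak set per mark on merged reads with MACS2 2.1.2 (tools and versions per the labels' processing notes) and deposited whole-number read counts per peak, not normalized. Peaks were therefore called on pooled samples.

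Members were chosen with CPM, the count over the library's sum in peaks, and the members, gene lists and named rule were set with earlier results of these data known. Positions came from GENCODE 44 lifted to GRCh37, and sequences from the GRCh37 genome, which has no repeat annotation here. Central 300-base windows were compared with BLAST+ 2.17.0 (E value up to 1e-20). H3K27ac counts of all 62195 peaks were fitted with DESeq2 1.42.0 (R 4.3.3; Wald test on the line, Benjamini-Hochberg over all peaks, adjusted p under 0.05), and a member took the H3K27ac peak sharing most bases. Alternatives were edgeR 4.0.16, a replicate block, TMM factors, a count filter of 10, other pairings and thresholds, and leaving out each library. On simulated H3K27ac counts for LM2 vs Par over 62195 peaks, 12%, 84%, 98% and 100% of 50 peaks changed by 2, 4, 8 and 16 times were recovered. The changed peaks were drawn only from peaks above a minimum mean count, which many peaks at members do not reach. The recovery therefore does not hold for peaks with few reads. Intervals of folds are exact at 95% and cover counting error only.

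Replicate numbers, from the labels, paired the samples: deviations of same-numbered libraries correlated across lines at 0.794 to 0.853 for H3K4me3 and 0.402 to 0.599 for H3K27ac, all over 0.1. The main DESeq2 fit left this pairing out, and it entered only the alternatives with a replicate block. Named were, per set, the 6 members with the highest CPM in the gaining line, the 8 promoters with the highest, members at listed genes, the 3 largest called H3K27ac changes and 2 on each side of each threshold. SP140, FLT1, TCF4, ROBO2, WTAPP1, TUBA3C, DUXAP10 and the intergenic members in the stretch with ADAMTS5 were chosen after their values were seen. Promoter windows were taken as the 300 bases before the start, free of exons, in place of 300 bases around it. Some loci and sequences are not reported here.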

Additional observations from a re-analysis of the deposited data

Results flagged for a closer look

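The following H3K27ac values differed between LM2 and BrM2 by the DESeq2 test of BrM2 against LM2 itself (adjusted p under 0.05 over all peaks), under the same comparison with Par. Peaks were called on reads pooled over the lines, which fixes the direction in part. The count was 6 at LM2-only members, all lower in BrM2, and 23 at BrM2-only members, all higher. Without LM2 replicate 1 or BrM2 replicate 1 the former count was 0, and without BrM2 replicate 1 the latter was 5. Among the named members the log2 difference of BrM2 over LM2 was 7.36 at NRK, where LM2 held 1 read and the fold had a counting interval of 28.5 to 6510. It was 4.39 at the non-coding ENSG00000258081, 4.12 at CARD18 and 4.11 at CDH18. It was 2.92 at the site upstream of CADM2 on chromosome 3, 2.46 at chr7:109284914-109287414 and 2.44 at PLCB4. At the LINE-1-like site near CDCA7 on chromosome 2 it was -4.51, with BrM2 lower.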

How the results depend on the processing

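With Par under 0.5 CPM there were 115 members (26 LM2 only, 76 BrM2 only, 13 both), and with 8 CPM or more in the gaining line 58 (12, 42 and 4). With 1 replicate per line, the number was 388 to 401 (LM2 only 90 to 126, BrM2 only 228 to 246, both 47 to 52). Counting starts of all genes, 42.9% were promoter peaks (26.4% LM2 only, 49.3% BrM2 only, 43.5% both). For H3K27ac, edgeR called 38 peaks at LM2-gained members and 1 of those gained in both between BrM2 and LM2. edgeR with the replicate block called 42 at LM2-gained members, 15 at LM2-only, 39 at BrM2-only and 3 at members gained in both between BrM2 and LM2, and 191 near members. DESeq2 with the replicate block called 24, 51, 5, 22 and 0 at members and 96 near them. Among the named values, that block changed the calls at KISS1, TSPOAP1, ENG and WDR72 and no other call where it gave an adjusted p. Without the LINE-1-like members, an alternative chosen after seeing the data, 14 LM2-gained and 3 LM2-only calls were left. Leaving out 1 library gave 7 to 22 calls at LM2-gained members, 27 to 44 at BrM2-gained, 0 to 5 at LM2-only, 5 to 25 at BrM2-only, 0 in each case at members gained in both and 31 to 69 near members. The lone library of a line was then assumed to vary like the others, and the cause of these differences was not tested. Of 418 alternatives to 39 named values, 357 kept direction and side of the threshold, 37 lost and 24 gained the call, and 0 reversed, and 84 others gave no adjusted p. At these depths a change of 2 times in H3K27ac is rarely detectable.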
